A study of Gallus gallus with 4 samples.

Results

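HOXB9, HOXB7, HOXD10 and HOXD11 are the trunk and posterior Hox genes of this study that were tested under a symbol. MEIS1, a Hox cofactor, and CDX2, a regulator of the posterior body axis, are set beside them. These 6 genes were chosen by gene symbol, with earlier results of these data known. They are the lines of the authors' deposited table that carry those names, out of 17108 genes in all. Only 1432 of the 17108 (8.37 percent) carried a symbol, so other Hox genes may have been measured without one. Each of the 6 genes had a mean above the authors' filter on low values, so 6 of 6 were among the 12574 genes with an adjusted p-value. The question for these genes was whether added Hoxb8, itself a trunk Hox gene, changes the cell's own Hox genes and the factors that work with or upstream of them.

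The study sequenced polyadenylated RNA of sorted cells from the trunk neural tube of chick embryos. In the Hoxb8 group (2 libraries) the neural tube received Hoxb8-pCIG at 1 µg/µl mixed with empty pCIG at 1 µg/µl, and in the control group (2 libraries) pCIG alone at 2 µg/µl. Both groups were electroporated at stage HH11 of the Hamburger-Hamilton series, dissected after 18 hours where GFP was visible, and sorted for live GFP-positive cells, so the pCIG plasmid, GFP and the sort are common to them. The labels give neither the species of the Hoxb8 insert nor how many embryos made up a library, and say nothing on whether replicates came from separate embryos, so the p-values measure only the spread between these libraries, which may be technical.

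Hox genes encode homeodomain transcription factors that lie in clusters and are expressed along the head-to-tail axis in the order of their place in the cluster, so that combinations of them give spinal cord cells their axial position. MEIS proteins, with PBX proteins, bind DNA together with Hox proteins and sharpen their choice of sites. CDX proteins act in the tail bud and posterior neural tube, where they are known to activate trunk Hox genes.

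Within this set the posterior HoxB gene HOXB9 fell and CDX2 rose in Hoxb8 cells, while the other 4 genes did not pass the test. The passing genes were therefore 2 of 6, against 15.2 percent of all tested genes that the authors' deposited table calls (adjusted p under 0.05). Among tested genes with a symbol the share was 17.8 percent. Since the 6 were chosen with earlier results known, setting their count beside these shares is a description and not a test. CDX2 lost its call (adjusted p = 0.166) under a stricter error, with Wald scores divided by 1.69, their central spread over all tested genes (interquartile range over that of a standard normal). That spread holds both error and any real changes of the genes, which were not separated. By direction, 1 of 6 was lower, against 6.49 percent of tested genes, and 1 of 6 was higher, against 8.72 percent. Log2 fold changes, given throughout as Hoxb8 over control, were below 0 for 5 of the 6 genes and for 50.9 percent of all tested genes, and their median was -0.11, against -0.0053 over all tested genes. The count below 0 depended on the scaling: centred on the median of genes with a mean over 10000 it was 3 of 6, against 32.0 percent of all tested genes, and the median of the 6 was 0.013. The members are too few for these shares to say more than their counts.

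**Figure D1:**
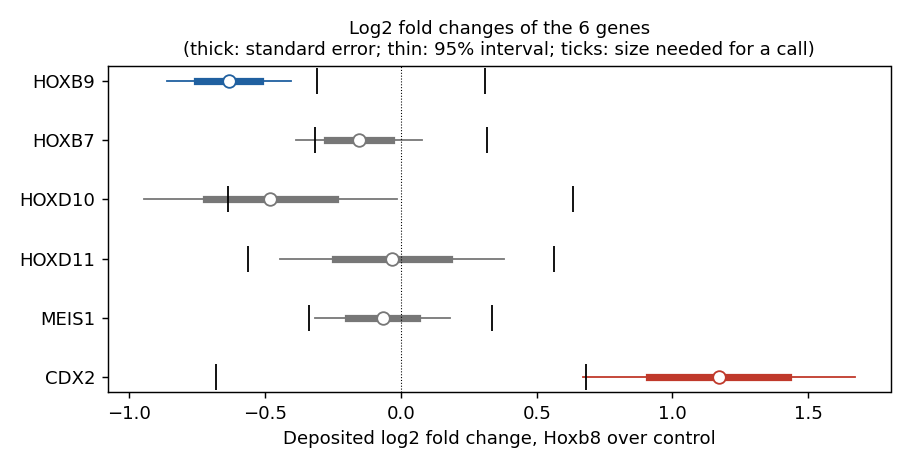
Log2 fold change of the 6 genes (x axis, Hoxb8 over control), with the deposited standard error as a thick bar, the 95% interval as a thin bar and black ticks at the size each gene would have needed to be called. HOXB9 lies below its lower tick and CDX2 above its upper tick, while the other 4 lie between theirs.

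HOXB9 (ENSGALG00000001276), a gene of the posterior part of the HoxB cluster that is expressed in the thoracic and more caudal spinal cord, had the lower p-value of the pair that passed. The authors' deposited table gives it a log2 fold change of -0.63 ± 0.12 (standard error, here and below), with a 95% interval of -0.86 to -0.41 (adjusted p = 1.99e-06, DESeq2 Wald test with Benjamini-Hochberg adjustment). This is a fall to 0.645 times the control level (0.551 to 0.755). The table holds a single mean per gene over the 4 libraries, 11446 normalised counts for HOXB9 in the authors' deposited table. Splitting that mean by the fold change puts HOXB9 at about 8973 normalised counts in Hoxb8 cells and 13919 in control cells. These are values derived from a fold change and not measured group means, and they carry no error of their own. Fold changes in the table are moderated toward 0, so such a split, and the intervals, can understate the gap. In sorted bulk cells, fewer cells that express HOXB9 and less HOXB9 RNA per cell cannot be told apart.

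By p-value HOXB9 stood at rank 75 among the tested genes below 0 and at rank 312 among all 12574. In size it ranked lower: 191 of the 816 genes called lower had a larger fall. Its standard error of 0.116 was smaller than that of 411 of the 499 genes nearest to it in mean. The difference was small, since their median was 0.121.

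HOXB7 (ENSGALG00000029090), which lies next to HOXB8 in the reference gene order, is a trunk gene of the same cluster. In the authors' deposited table it had a log2 fold change of -0.16 ± 0.12 at a mean of 7280 normalised counts (adjusted p = 0.429, DESeq2). The 95% interval of HOXB7 ran from -0.39 to 0.077 and that of HOXB9 from -0.86 to -0.41, so with the deposited standard errors the intervals of these cluster mates were narrowly apart. They overlapped when centred on genes of like level (HOXB7 -0.30 to 0.16, HOXB9 -0.74 to -0.28) and with standard errors widened by the central spread (HOXB7 -0.55 to 0.24, HOXB9 -1.02 to -0.25). The difference between these genes was not tested, since values per library were not used here. With its standard error, HOXB7 would have been called at a change of 0.32 or more on the log2 scale, or 1.25-fold. A smaller change of HOXB7 would not have been called.

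HOXD10 (ENSGALG00000009270), a gene of the HoxD cluster expressed at lumbar levels of the spinal cord, had the larger deviation of the HoxD pair. In the authors' deposited table its log2 fold change was -0.48 ± 0.24 at a mean of 356 normalised counts, with an unadjusted p of 0.0431 and an adjusted p of 0.169 (DESeq2). Its 95% interval, -0.95 to -0.015, held the whole range of the HOXB9 interval, and a call at its standard error needed 0.64 on the log2 scale, or 1.55-fold. The deposited mean of HOXD10 splits into about 297.0 normalised counts in Hoxb8 cells and 415 in control cells.

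HOXD11 (ENSGALG00000009273), the neighbour of HOXD10 in the reference gene order, was close to the lower limit of what the table tested. Its mean was 20.2 normalised counts in the authors' deposited table, where the lowest mean with an adjusted p was 17.5. The deposited log2 fold change of HOXD11 was -0.033 ± 0.21 (95% interval -0.45 to 0.38, adjusted p = 0.943, DESeq2, in the authors' deposited table). A call needed 0.56 on that scale, or 1.48-fold, and the deposited fold changes are moderated toward 0 at such low means. That value does not show that HOXD11 was unchanged.

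MEIS1 (ENSGALG00000008774), the Hox cofactor, had the highest read count of the 6 genes, which is not a level per length. In the authors' deposited table it had a mean of 13288 normalised counts and a log2 fold change of -0.067 ± 0.13 (adjusted p = 0.790, DESeq2). The 95% interval of -0.31 to 0.18 corresponds to 0.804 to 1.13 times the control level. Among the 6 genes it was thus, with HOXB7, the one for which these libraries set the closest limits on a change that did not pass.

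CDX2 (ENSGALG00000027764), the caudal-type homeobox gene, had the largest change of the 6 and the opposite direction to HOXB9. Its log2 fold change was 1.17 ± 0.26 in the authors' deposited table (95% interval 0.67 to 1.67, adjusted p = 0.000116, DESeq2), a 2.25-fold rise with an interval of 1.59-fold to 3.19-fold. This call ended under the stricter error (adjusted p = 0.166). The mean was low, 191 normalised counts in the authors' deposited table, which splits into about 265 in Hoxb8 cells and 118 in control cells. CDX2 ranked 360 by p-value among the genes above 0, and 167 of the 1097 genes called higher had a larger rise. With the deposited standard errors the 95% interval of CDX2 lay above those of the 5 other genes, whose highest upper bound was 0.38, for HOXD11. With standard errors widened by the central spread its lower bound was 0.32, and it overlapped the intervals of HOXD11 (upper bound 0.66) and MEIS1 (0.35).

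Fold changes went with the mean level of a gene: per the authors' deposited table the median log2 fold change was 0.15 at means of 100 to 1000 normalised counts and -0.12 at 10000 and above. Each member was therefore set against its 499 nearest genes by mean. For HOXB9 their median was -0.12, and 7 of 499 had a lower log2 fold change than HOXB9. For CDX2 the median was 0.15, and 16 of 499 had a higher one. HOXD10 lay at the low end of its neighbours, whose median was 0.19, with 25 of 499 below it. HOXB7, HOXD11 and MEIS1 lay within the body of theirs, with 187, 175 and 309 of 499 below them.

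**Figure D2:**
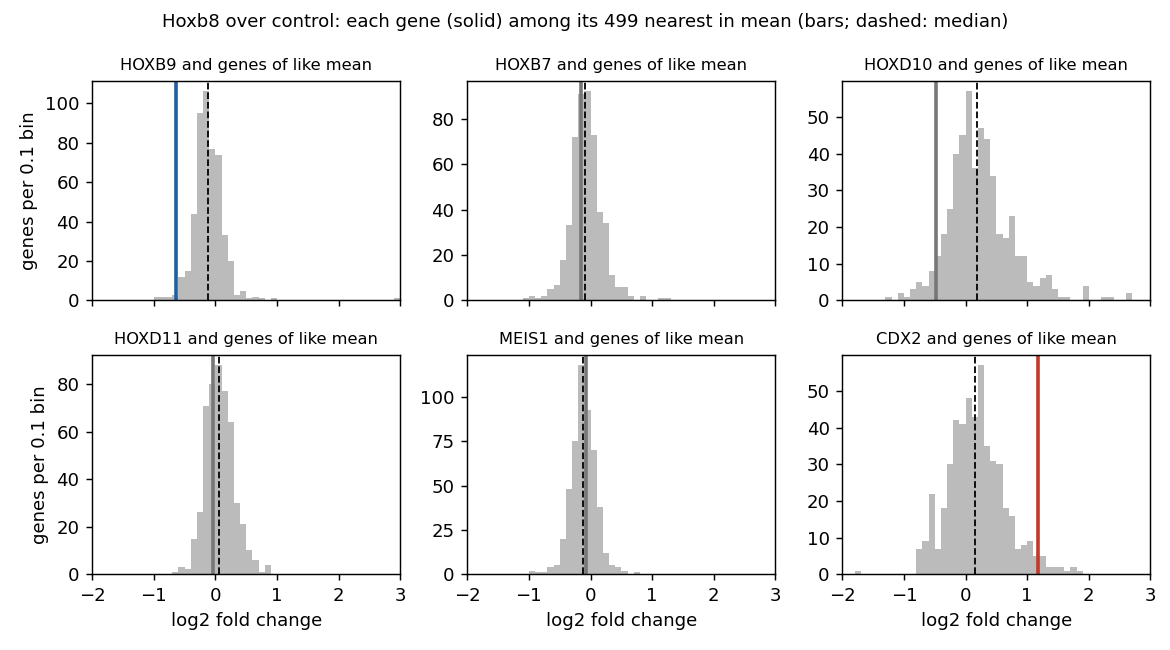
Number of genes (y axis) per bin of log2 fold change (x axis, Hoxb8 over control, values beyond the axis counted in the outer bins) among the 499 genes nearest in mean to each of the 6 genes. The solid line is the gene itself and the dashed line the median of its neighbours: HOXB9 lies at the low edge and CDX2 at the high edge, and HOXD10 lies further below its dashed line than HOXB7 does.

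The share of calls also differed between these levels. Of the genes near HOXB9, 74 of 499 were called (14.8 percent), 60 of them lower, so a fall was the usual direction of a call there. Near CDX2 the number called was also 74 of 499, of which 64 were higher, so a rise was the usual direction. HOXB9 and CDX2 thus each moved in the direction most called genes of their level took. Near HOXD10 116 of 499 genes were called (23.2 percent), 100 higher and 16 lower, while HOXD10 itself stood below 0 without a call. Near HOXD11 only 14 of 499 genes were called (2.81 percent), and how much of that low share goes with the low mean was not tested.

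**Figure D3:**
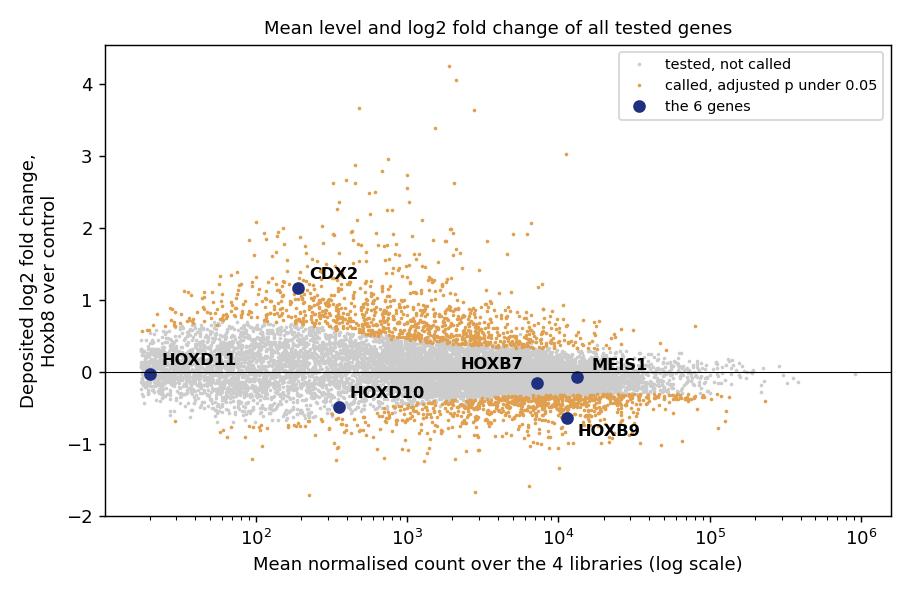
Deposited log2 fold change (y axis, Hoxb8 over control) against the mean normalised count over the 4 libraries (x axis, log scale) for all 12574 tested genes, with called genes in orange and the 6 genes in blue. Calls at low means are mostly above 0 and calls at high means mostly below 0, and CDX2 and HOXB9 sit on those sides of the cloud.

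By family, 7 of the 39 Hox genes in a list of the 4 clusters had a line under their symbol in the authors' deposited table. HOXC6, HOXC11 and HOXC12 were listed at 0, so 4 were tested, of which 0 were higher and 1 lower by DESeq2 (0 and 2 at an unadjusted p under 0.05), with a median log2 fold change of -0.32. Of all tested genes 8.72 percent were called higher and 6.49 percent lower. A mean of 0 was listed for 2247 of the 17108 genes, and whether a 0 stands for absent RNA was not tested. The electroporated gene itself had no line under the symbol HOXB8 (0 lines) and was not analysed here, so the direction of the comparison rests on the title of the authors' deposited table. Of 10 cofactor genes of the MEIS, PBX and PKNOX families, MEIS1 was the 1 tested, and PBX4 was listed at 0.

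Other homeobox genes placed these values in a wider family. With the 6 genes included, 23 genes were tested. They are those of the homeobox lists used here and CDX2, which was added from the posterior axis list as a member. Of these 2 rose and 5 fell, with a median log2 fold change of -0.067. The share called was 30.4 percent, against 15.2 percent of all tested genes and 17.8 percent of tested genes with a symbol. The teashirt genes, which can also be classed as homeobox genes, are not in those lists. TSHZ2 and TSHZ3 rose and TSHZ1 did not pass (values below), so the counts do not describe the whole family. Under the stricter error 0 of the 23 rose and 3 fell (HOXB9, PAX3 and LMX1A), against 2.48 percent of all tested genes called. The teashirt genes are not part of that count either. TSHZ2, which rose, had a lower unadjusted p than HOXB9 (5.64e-11 against 4.94e-08, DESeq2 Wald test). Dividing all scores alike keeps that order, so TSHZ2 passes the stricter error too. PAX3 and LMX1A, transcription factors of dorsal progenitors and the roof plate, fell further than HOXB9, with log2 fold changes of -0.82 ± 0.12 and -1.05 ± 0.15 from the authors' deposited table. ZFHX4, a large zinc finger and homeodomain factor, and GBX1, a homeobox gene of dorsal spinal cord neurons, fell by 0.58 ± 0.13 (adjusted p = 0.000146) and 0.56 ± 0.20 (adjusted p = 0.0324, both DESeq2) per the authors' deposited table. RAX, known from the eye field and hypothalamus, was the other of the 23 that rose. The authors' deposited table puts it at 0.97 ± 0.26 with a mean of only 69.2 normalised counts (adjusted p = 0.00348, DESeq2). No gene of the 23 had a higher log2 fold change than CDX2 (0 of 23), and 2 had a lower one than HOXB9.

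**Figure D4:**
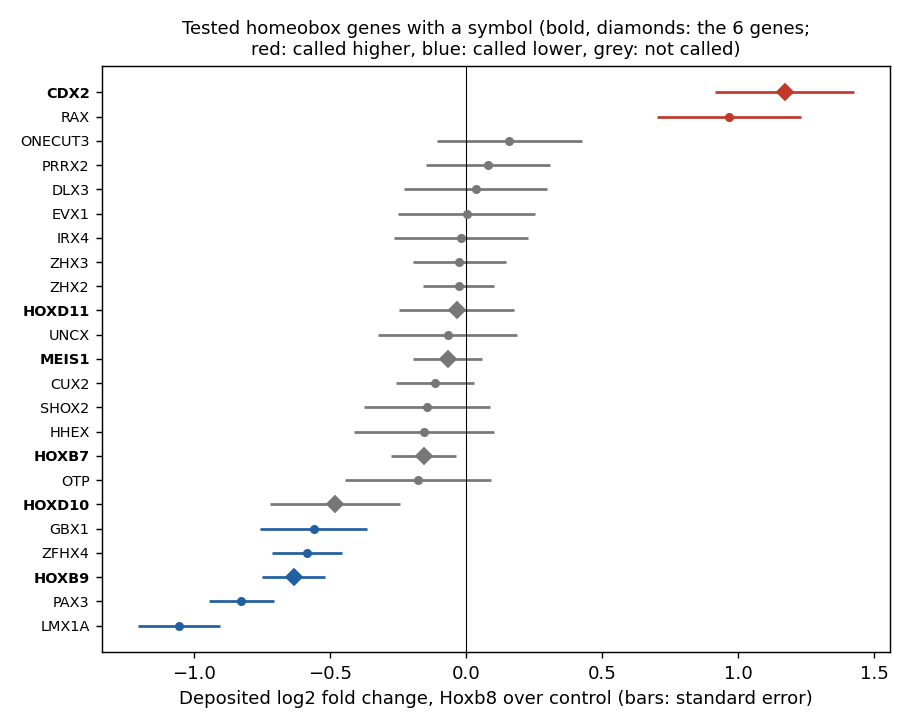
Deposited log2 fold change (x axis, Hoxb8 over control, bars are the standard error) of 23 tested genes, those of the homeobox lists and CDX2. They are in order of value, with the 6 genes as diamonds, and the teashirt genes are not among them. CDX2 and RAX were called higher (red), and HOXB9, PAX3, LMX1A, ZFHX4 and GBX1 lower (blue), while the bars of most grey genes cross 0.

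Lists of genes linked with Hox expression or with the posterior axis were used for description. Over all tested genes 15.2 percent were called, 8.72 percent higher and 6.49 percent lower, and 17.8 percent of those with a symbol. The lists hold too few tested genes for their counts to be set against these shares. Of the posterior axis and tail bud list 4 of 29 genes were tested, of which 1 rose (CDX2) and 0 fell by DESeq2 (2 and 0 at an unadjusted p under 0.05), with a median log2 fold change of 0.26. Its other genes did not pass, and their log2 fold changes come from the authors' deposited table: SP5, a WNT target of the tail bud, stood at 0.52 ± 0.27 (adjusted p = 0.187, DESeq2), LIN28B, an RNA-binding protein of early progenitors, at -0.091 ± 0.12, and EVX1, an even-skipped homeobox gene, at 0.0022 ± 0.25. The standard error of SP5 was wide for its mean of 5628 normalised counts, since the median was 0.14 at means of 1000 to 10000. Its unadjusted p was 0.04999 (DESeq2), just under that threshold. Retinoic acid is a known activator of Hox genes, and of that list 2 of 17 genes were tested and both passed in opposite directions. Per the authors' deposited table RDH10, which makes its precursor retinaldehyde, rose by 0.68 ± 0.15 (log2), while NRIP1, a corepressor of nuclear receptors, fell by 0.59 ± 0.14 (log2).

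Polycomb proteins keep Hox genes silent outside their domains. In the list of Polycomb and trithorax genes 2 of 43 were tested, both of them chromobox subunits, of which 1 rose and 0 fell by DESeq2 (also 1 and 0 at an unadjusted p under 0.05). From the authors' deposited table, CBX2 rose by 0.39 ± 0.13 on the log2 scale (adjusted p = 0.0247, DESeq2), while CBX7 stood at -0.16 ± 0.25. A further list was drawn up under the name of rostral Hox regulators. It had 4 tested genes of 12, namely GBX1 and the teashirt zinc finger genes, of which 2 rose and 1 fell. Whether these genes act on Hox genes was not tested. Over all tested genes 8.72 percent were called higher and 6.49 percent lower. The lists of this paragraph are too small for their counts to be set against those shares. The authors' deposited table has TSHZ2 up by 1.10 ± 0.17 (adjusted p = 4.12e-09), TSHZ3 up by 0.38 ± 0.12 (adjusted p = 0.0218) and TSHZ1 at -0.28 ± 0.12 (adjusted p = 0.0931, all DESeq2).

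The genes with a symbol whose values were most like those of HOXB9 and CDX2, within a 2-fold window of mean, give a sense of scale. Likeness here is the difference in log2 fold change in 1 comparison, so it says nothing of a shared pattern. Closest to HOXB9, among 190 genes, were TRABD2A (-0.65 ± 0.15), C17orf75 (-0.60 ± 0.14) and NRIP1 (-0.59 ± 0.14) in the authors' deposited table. Closest to CDX2, among 167 genes, were FAM124A (1.15 ± 0.22), the prohormone convertase gene PCSK1 (1.13 ± 0.21) and PLPPR4 (1.30 ± 0.24) in the authors' deposited table.

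Gene order could be used by name alone, since the reference table at hand is of the assembly GRCg7b and the deposited identifiers are of another build. Within 5 places on either side, HOXD10 and HOXD11 are each other's neighbours, HOXB9 was not placed, and POMP, a proteasome assembly gene near CDX2, was the 1 further neighbour with a symbol in the deposited table. For POMP the authors' deposited table gives -0.20 ± 0.12 and a mean of 7312 normalised counts (adjusted p = 0.297, DESeq2). In that reference HOXB7 overlaps 1 other entry, a non-coding RNA, and HOXD10, HOXD11, MEIS1 and CDX2 overlap 0. The strand setting of the counting is not given in the sources used here, so reads of HOXB7 and of such a transcript cannot be told apart, and the same holds for any antisense transcript of the other genes.

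The calls of HOXB9 and CDX2 differed in how they bore a stricter error. With scores divided by the central spread of 1.69, fewer genes were called: 2.48 percent of tested genes passed, and 1 of the 6 genes. HOXB9 stayed just past the threshold (adjusted p = 0.0499), and CDX2 did not pass (adjusted p = 0.166). Centred on genes of like level, where 12.6 percent of tested genes were called, HOXD10 passed as well (log2 fold change -0.67, adjusted p = 0.0424, from the deposited standard errors and Benjamini-Hochberg adjustment).

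**Figure D5:**
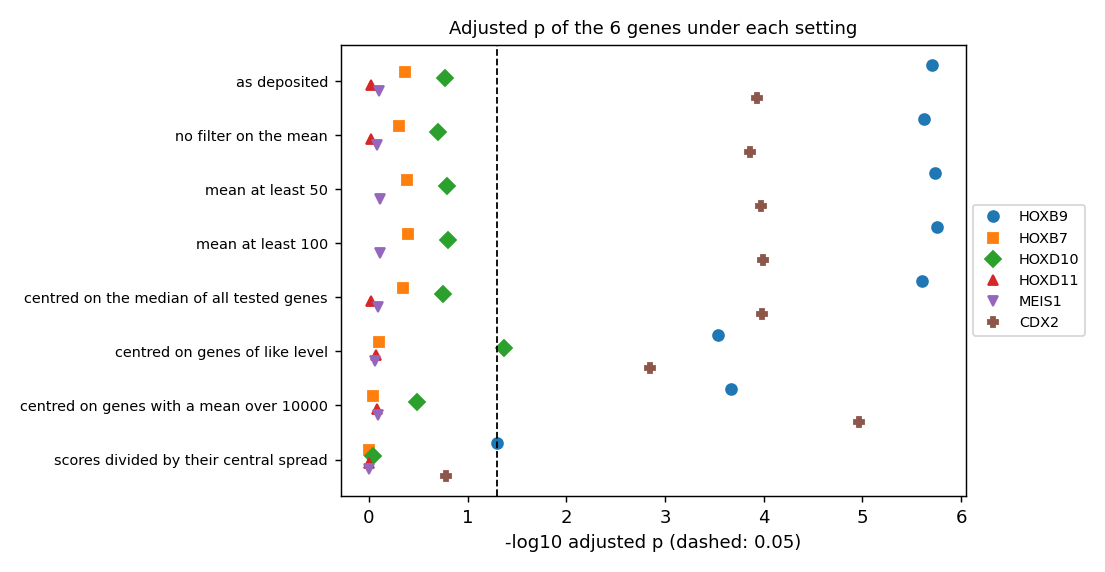
Adjusted p on a -log10 scale (x axis) of the 6 genes under the deposited values and 7 other settings (y axis), with the threshold of 0.05 dashed. HOXB9 is at or right of the line in each, CDX2 falls left of it when scores are divided by their central spread, and HOXD10 crosses it when centred on genes of like level.

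The tissue could be checked against marker genes in small part. No gene of the lists for neural tube progenitors, neurons, neural crest, or notochord and floor plate had a line under its symbol (0 of 8, 0 of 6, 0 of 4 and 0 of 3). Of markers of other tissues in the authors' deposited table, the somite gene UNCX stood at -0.067 ± 0.25 (mean 178), the surface ectoderm gene GRHL2 at -0.49 ± 0.26 (mean 95.4) and the endothelial gene PECAM1 at -0.028 ± 0.27 (mean 1998), each a log2 fold change beside a mean normalised count, and none of these 3 passed. LMO2, expressed in endothelium and blood and also in spinal interneurons, rose by 1.48 ± 0.17 in the authors' deposited table, and KRT8 was listed at 0. The standard error of PECAM1 was wide for its mean, since the median was 0.14 at means of 1000 to 10000. The part of other cells in the values of HOXB9 and CDX2 was not tested.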

How the data were processed

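The file used was the authors' deposited table of 1 comparison, Hox against WT, read as Hoxb8 against the pCIG control, the 2 groups of the labels. Per the submitters' processing notes, galGal4, Subread, featureCounts, DESeq and DESeq2 were used, with no roles or versions. Their settings are not stated in these notes. The authors' deposited signal is a mean normalised count over the 4 libraries. Fold changes and their standard errors were deposited as log2 values. The deposited Wald score is their ratio, and the authors' deposited p-values follow from it, adjusted over 12574 genes (largest deviation 1.89e-15). Standard errors had a median of 0.114 below the filter, against 0.258 between 17.5 and 100 and 0.119 at 10000 and above, so fold changes are moderated toward 0. Symbols come from the table, for 1432 of 17108 genes (8.37 percent). Summed means came to 79237283 normalised counts, and totals per library were not derived.

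Calls are the authors' adjusted p under 0.05. Intervals are the log2 fold change ± the normal 95% range of the standard error. A deposited mean was split by its fold change, with both groups weighted alike. The planned count models need values per library and were not run. Alternatives recomputed p-values from fold changes and standard errors and adjusted over all genes, in Python 3.11.15 with SciPy 1.17.1, a procedure tested on simulated data. Genes named are the 6 members, up to 4 per list by lowest p, the 3 nearest in value to each called member and neighbours in gene order. Members and lists were chosen with earlier results of these data known. No sequence is printed, and 1 gene was left out of a list and is not reported here.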

Additional observations from a re-analysis of the deposited data

How the results depend on the processing

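No paired analysis was possible because values of single libraries are not part of the table used here. For the same reason leaving out single libraries, edgeR and a second DESeq2 normalization were not run. All alternatives were listed with earlier results of these data known. Over 9 alternatives HOXB9 kept its direction and call (log2 fold change -0.63 to -0.51, adjusted p 1.75e-06 to 0.0499), and CDX2 kept its direction (1.02 to 1.30) and lost its call under 1. Filters, thresholds and the division of scores leave a log2 fold change as deposited, so only the centrings could change a direction. Among these, the median of all tested genes was itself only -0.0053. A looser threshold on the adjusted p could not end a call. The 0.01 threshold could not end that of HOXB9 either (deposited adjusted p = 1.99e-06, DESeq2). The filters and the centring on the median of all tested genes could hardly do so. The division of scores came closest to ending the HOXB9 call. The 2 called members became 1, and the 1913 called genes 312 (237 higher, 75 lower, 76.0 percent higher against 57.3 percent), with scores divided by their central spread. With an adjusted p under 0.01 the 1913 became 1184, a smaller count by construction, and both members stayed called. Centred on the median of genes over 10000, a shift of 0.12, 83.7 percent of calls were higher. Directions reversed only in genes that never passed: MEIS1 stood at 0.049 centred on genes of like level and at 0.057 with genes over 10000 at 0, and HOXD11 at 0.091 in that second setting. HOXD10 gained its call under 1 alternative (adjusted p 0.0424 to 0.906 over all). HOXD11 was not tested at a mean of at least 50 or 100. At the deposited standard errors a call needed a log2 change of 0.68 for CDX2, 0.64 for HOXD10 and 0.56 for HOXD11, against 0.31 to 0.34 for HOXB9, HOXB7 and MEIS1, which had higher means.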
